A study of Schizosaccharomyces pombe with 6 samples.

Results

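The genes described here take iron and copper into fission yeast (Schizosaccharomyces pombe) cells, or control that uptake. They were chosen by name: the uptake genes str1 (SPBC4F6.09), frp1 (SPBC1683.09c), fio1 (SPAC1F7.08), fip1 (SPAC1F7.07c), sib1 (SPAC23G3.02c) and sib2 (SPAC23G3.03), the regulator genes fep1 (SPAC23E2.01) and php4 (SPBC16E9.01c), and the copper transporter gene ctr4 (SPCC1393.10). All 9 have a row among the 7016 features of the expression table, and all 9 passed the filter on low values that left 6166 genes for testing. RNA was sequenced from asynchronous cells in exponential growth at 30 °C in YES, a rich medium. Cultures stood for 3 h with estradiol at 1 µM in ethanol (3 libraries) or with the ethanol vehicle (3 control libraries), and the design calls them biological triplicates. The strain, its alleles and any estradiol-responsive activator it carries are not described in the labels, and both groups share whatever these are.

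Fission yeast takes up iron along separate routes. In the reductive route, a ferric reductase at the cell surface (Frp1) frees iron, which a multicopper ferroxidase (Fio1) and a permease (Fip1) carry inwards together. In the siderophore route, Sib1, a non-ribosomal peptide synthetase, and Sib2, an ornithine hydroxylase, make the iron chelator ferrichrome, and Str1 brings iron-loaded ferrichrome into the cell. When iron is plentiful, the GATA-type factor Fep1 represses these genes. When iron is scarce, Php4 joins the CCAAT-binding complex of Php2, Php3 and Php5 and represses genes whose products use iron, fep1 among them. Ctr4 forms a copper transporter with Ctr5, and the factor Cuf1 activates both genes when copper is scarce. Fio1 needs copper, and Cuf1 is also known to repress fio1 and fip1 under copper starvation.

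Sequence upstream of the 6 uptake genes is shown. Of these, fio1 and fip1 share an upstream region and varied together over the 6 libraries (Pearson's r = 0.988). The genes sib1 and sib2 also share an upstream region and gave r = 0.09. Their levels varied little, from 20.3 to 24.9 FPKM for sib1 and from 29.3 to 33.6 FPKM for sib2. With so little variation, r says little about whether they vary together. The windows were read from the RefSeq assembly ASM294v3 and each occurs once in that genome. The authors' own build is not given in the sources used here. Capitals mark the short Fep1-type element (AGATAA or TGATAA) in each of the 4 windows. The fio1 and fip1 genes lie head to head with 303 bases between their annotated ends, so that a single window (chrI:4234809-4234898, plus strand, towards fio1) serves both. The frp1 window is chrII:162436-162505 (minus strand). The window from the 1108 bases between sib1 and sib2, which also lie head to head, is chrI:869948-870017 (minus strand, towards sib1). The str1 site is chrII:2704641-2704670 (plus strand) and spans the annotated start of the gene. The windows read 5′ to 3′ as follows.
fio1 and fip1: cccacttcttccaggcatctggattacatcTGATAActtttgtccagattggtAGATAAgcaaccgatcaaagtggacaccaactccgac
frp1: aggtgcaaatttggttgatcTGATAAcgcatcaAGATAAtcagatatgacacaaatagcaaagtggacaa
sib1 and sib2: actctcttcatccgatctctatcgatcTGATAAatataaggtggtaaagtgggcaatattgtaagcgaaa
str1: ctgccgaccatcAGATAAttcttatttttc

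Motifs were searched on both strands in the 1000 bases before each start codon. All windows but that of ctr4 hold annotated 5′ UTR, which spans 866 bases for str1, 232 for sib2 and 1348 for fep1. All sites before fep1 lay within it, as did the short element before sib2. The str1 short elements that began 813, 496 and 167 bases before the start codon also lay within it. The short element occurred before 8 of the 9 genes, but also in 87.1% of the 5112 windows of that length before protein-coding genes. In all 4 windows shown, at least 1 short element follows the letters atc. This longer form, ATCAGATAA or ATCTGATAA, was searched after the windows had been seen. It contains the short form, and it stood before str1 (at 2 sites), frp1 (at 2 sites), fio1, fip1, sib1 and php4, which is 6 of 9 genes, with fio1 and fip1 reading the same site. It occurred in 3.85% of all windows, and at 2 or more sites in 0.372%. Of the 6 genes only php4 has no window shown, so that setting 6 of 9 beside this share is no test. The frp1 region and the region shared by fio1 and fip1 each hold 2 short elements that start 13 and 23 bases apart, and 11.3% of all windows hold 2 that start within 30 bases. The sib1 window holds 1 short element and the sib2 window another, without the long form. The long-form site counted for sib1 lies in the region shared with sib2, but beyond the 1000 bases searched before sib2. CCAAT stood at 3 sites each before fep1, php4 and ctr4, at 2 sites each before fio1 and fip1 and at 1 before frp1. At least 1 site was in 85% of all windows, and at least 3 were in 31.8%. The copper-signalling element CuSE, by which Cuf1 acts, occurred at 4 sites before ctr4 and at 4 sites before its partner gene ctr5. It also occurred at 1 site before php4 and at 2 sites each before the further transporter genes str3 and abc3. None was found before fio1, fip1 or the rest of the 9 genes. At least 1 CuSE was in 64.9% of all windows, at least 2 were in 28.9% and at least 4 in 2.19%. Sites of the Fep1-type, CCAAT and CuSE motifs did not overlap in these windows. A match describes the letters and does not show that a factor binds there.

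**Figure D1:**
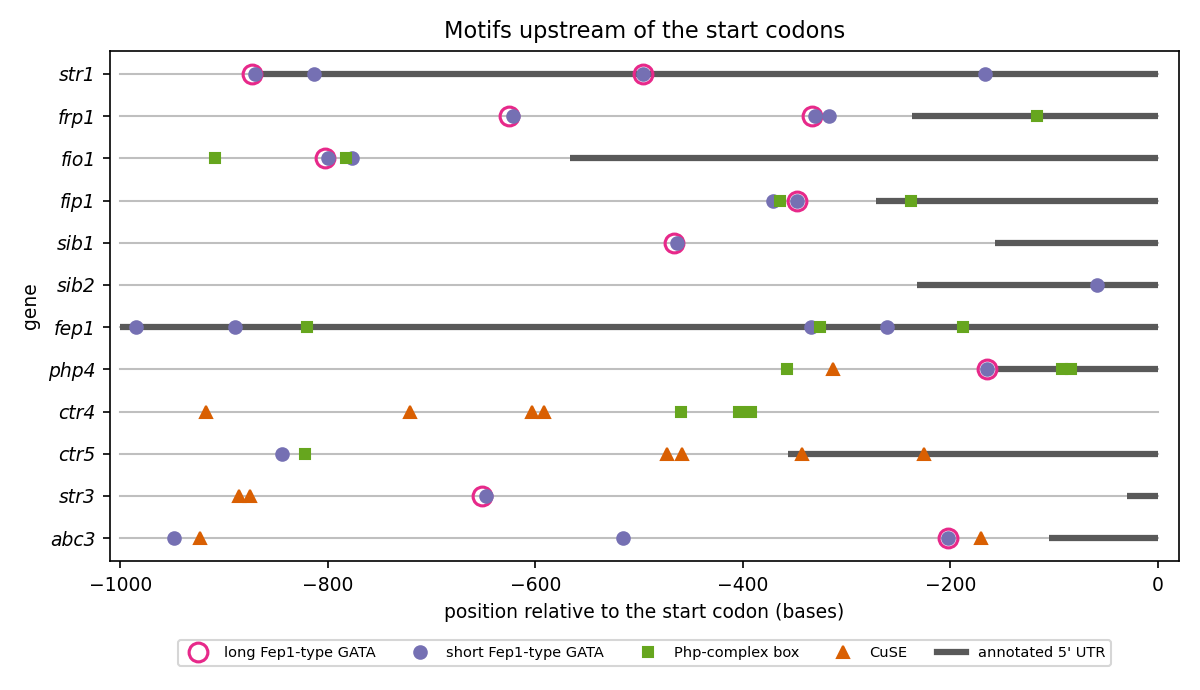
Positions of motifs (symbols) in the 1000 bases before the start codon (x axis, in bases) of the 9 genes and of str3, abc3 and ctr5; thick lines mark the annotated 5′ UTR. The long Fep1-type element appears before 6 of the 9 genes, and CuSE at 4 sites each before ctr4 and ctr5.

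Values are FPKM, which the authors scaled to gene length and to the size of each library. In the controls the mean level per length was highest for ctr4 (151 FPKM), followed by str1 (86.5), fio1 (59.4), fip1 (54.0), fep1 (50.8), sib2 (32.3), php4 (30.0), sib1 (22.0) and frp1 (20.3). Among neighbours in this order, fep1 and sib2 were the pair whose control libraries did not overlap. Libraries are numbered 0 to 2 in each group by the table's columns, and the labels do not tie these numbers to cultures. The table gives no absolute depth, and in such bulk cultures fewer cells expressing a gene and less RNA per cell cannot be told apart. The kit does not mark strand, and annotated antisense lncRNAs overlap str1, fio1, sib1, sib2, fep1 and php4, so that their values may hold antisense reads. Relative depth was read as the most common ratio, among the lowest genes, of FPKM in control library 0 to FPKM in another library. With control library 0 set to 1, it was 0.688 to 1.30 in 4 other libraries, each resting on 9 to 16 genes. The depth of estradiol library 1 could not be settled, with 2.30 from genes under 0.3 FPKM and 0.767 from genes under 2 FPKM.

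None of the 9 genes was called different with estradiol, while levels of str1, frp1, fio1, fip1, php4 and ctr4 ranged widely between libraries of 1 group. The test was limma on log2(FPKM + 1) with a Benjamini-Hochberg adjusted p under 0.05 over all 6166 genes, and it called 7.98% of them, 4.07% higher and 3.91% lower. At an unadjusted limma p under 0.05 stood 1 of the 9 genes, fep1, against 25.9% of all tested genes. The median log2 change of the 9 genes was 0.09, and that of all tested genes was 0.02. With the column number as a replicate block, limma called 1 of the 9 lower, again fep1, and called 8.21% of all tested genes higher and 8.5% lower (16.7% together).

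**Figure D2:**
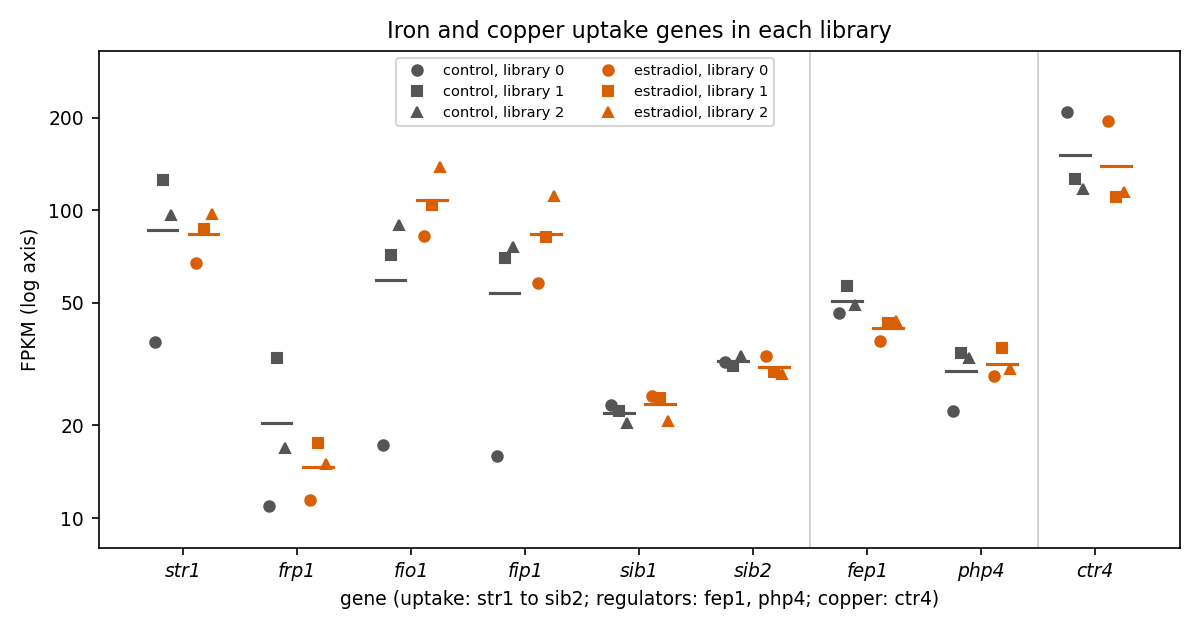
FPKM (log axis) of each gene in the 3 control (grey) and 3 estradiol (orange) libraries, with the symbol shape giving the library number and the bar the group mean. Control library 0 is the lowest of all 6 for str1, frp1, fio1, fip1 and php4, and the libraries numbered 0 are the highest for ctr4 in both groups.

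The ferroxidase gene fio1 stood at 17.3, 71.6 and 89.4 FPKM in control libraries 0, 1 and 2, and at 82.4, 104 and 138 FPKM in estradiol libraries 0, 1 and 2. Its permease partner fip1 stood at 15.9, 70.0 and 76.2 FPKM in control libraries and at 57.9, 81.9 and 111 FPKM with estradiol. In both genes control library 0 was far below every other library, and the other control libraries overlapped the estradiol range. The group means were 59.4 ± 37.6 and 108 ± 28.0 FPKM for fio1 and 54.0 ± 33.2 and 83.7 ± 26.8 FPKM for fip1 (mean ± SD over 3 libraries each). On the log2 scale the change was 1.12 for fio1 (SE 0.58, 95% interval -0.26 to 2.49, limma adjusted p = 0.28) and 0.85 for fip1 (SE 0.58, 95% interval -0.53 to 2.24, limma adjusted p = 0.411). Without control library 0 these changes were 0.40 and 0.15, with limma adjusted p of 0.365 and 0.792. With the column number as a block, the SE was 0.32 for fio1 (95% interval 0.31 to 1.92, limma adjusted p = 0.0716) and 0.29 for fip1 (95% interval 0.13 to 1.58, limma adjusted p = 0.104). Both genes were higher with estradiol in all 3 pairs of equal number. The intervals thus hold 0 without the block and lie above 0 with it, while neither fit called either gene.

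The levels of fio1 and fip1 followed each other closely from library to library. The ratio of fio1 to fip1 FPKM was 1.08, 1.02 and 1.17 in control libraries 0, 1 and 2, although the level of each gene differed over 4-fold among them. It was 1.42, 1.27 and 1.24 in estradiol libraries 0, 1 and 2, above all 3 controls. This ratio was looked at after the values had been seen. No test is given for it.

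The siderophore transporter gene str1 stood at 37.5, 126 and 96.3 FPKM in control libraries 0, 1 and 2 and at 67.3, 86.9 and 97.0 FPKM in the estradiol libraries. The highest and the lowest library were both controls. The mean was 86.5 ± 45.0 FPKM in the controls and 83.7 ± 15.1 FPKM with estradiol, while the log2 change was 0.10 (SE 0.42, 95% interval -0.89 to 1.10, limma adjusted p = 0.913), and the 2 scales thus differ in sign. Without control library 0 the log2 change was -0.41. The reductase gene frp1 stood at 10.9, 33.1 and 16.9 FPKM in control libraries and at 11.5, 17.5 and 15.0 FPKM with estradiol. Here control library 1 stood above all others, and the estradiol range lay within that of the controls. The log2 change of frp1 was -0.33 (SE 0.37, 95% interval -1.20 to 0.55, limma adjusted p = 0.632), and without control library 1 it was 0.08.

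The ferrichrome synthesis genes sib1 and sib2 varied less within each group than the other 4 uptake genes. The peptide synthetase gene sib1 stood at 23.3, 22.2 and 20.3 FPKM in control libraries and at 24.9, 24.6 and 20.7 FPKM with estradiol. The hydroxylase gene sib2 stood at 32.1, 31.2 and 33.5 FPKM in control libraries and at 33.6, 29.9 and 29.3 FPKM with estradiol. The groups overlapped in both genes, and no library stood apart. The log2 change was 0.09 for sib1 (SE 0.10, 95% interval -0.15 to 0.32, limma adjusted p = 0.638) and -0.06 for sib2 (SE 0.08, 95% interval -0.24 to 0.12, limma adjusted p = 0.663). Both intervals lay within -0.24 and 0.32, far narrower than those of the other uptake genes. Control library 0, the lowest for the other 4 uptake genes, held the highest sib1 value of the controls.

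Of the regulators, the repressor gene fep1 was the only one of the 9 genes whose groups did not overlap, as was the case for 31.2% of all tested genes. It stood at 46.5, 56.7 and 49.3 FPKM in control libraries 0, 1 and 2, and at 37.7, 43.2 and 43.8 FPKM with estradiol. Each estradiol library lay below each control, by a small margin. The means were 50.8 ± 5.28 and 41.5 ± 3.37 FPKM, with a log2 change of -0.28 (SE 0.10, 95% interval -0.52 to -0.05), and the limma adjusted p was 0.124. With the column number as a block, limma's adjusted p was 0.0401, which passes the threshold. The change stayed below 0 whichever library was left out, between -0.34 and -0.20, and was called in none of these 6 omissions. The php4 gene, whose product represses iron-using genes, stood at 22.2, 34.5 and 33.1 FPKM in control libraries and at 29.0, 35.8 and 30.4 FPKM with estradiol. The groups overlapped, and control library 0 was again the lowest. Its log2 change was 0.10 (SE 0.17, 95% interval -0.31 to 0.51, limma adjusted p = 0.773).

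The copper transporter gene ctr4 differed between libraries by their column number and hardly by treatment. It stood at 209, 126 and 117 FPKM in control libraries 0, 1 and 2 and at 195, 110.4 and 114 FPKM in estradiol libraries 0, 1 and 2. Library 0 was the highest of each group, and the other 4 libraries lay close together. The log2 change with estradiol was -0.11 (SE 0.29, 95% interval -0.79 to 0.57, limma adjusted p = 0.856). With the column number as a block the SE fell to 0.05, and limma's adjusted p was 0.189. The gene of its partner subunit, ctr5, chosen for mention after its values were seen, stood at 154, 83.2 and 72.3 FPKM in control libraries and at 132, 84.0 and 87.5 FPKM with estradiol, with library 0 again the highest of each group. Its log2 change was 0.02 (limma adjusted p = 0.979). An antisense lncRNA, SPNCRNA.923, overlaps ctr5 by 451 bases, and reads from the 2 strands cannot be told apart with this kit.

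**Figure D3:**
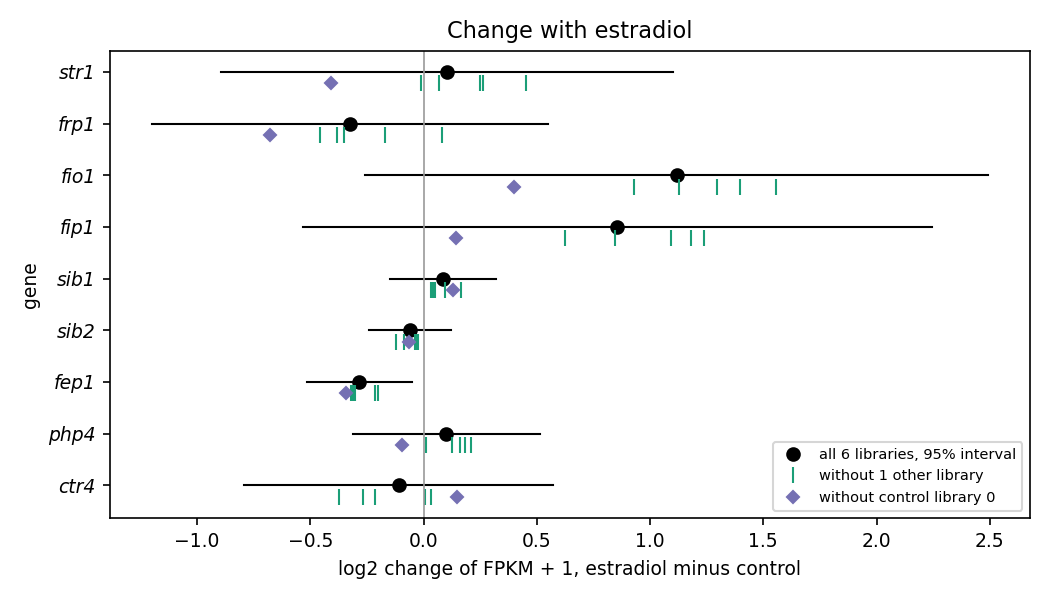
Log2 change of FPKM + 1 with estradiol (x axis) for each gene, with its 95% interval from limma (line) and the change when 1 library is left out (marks below). The estimates of fio1 and fip1 are 1.12 and 0.85 with all 6 libraries and 0.40 and 0.15 without control library 0 (diamond), and those of sib1 and sib2 stay near 0.

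The libraries numbered 0 were set against the other libraries of their group. With 3 libraries per group, any given library is often the lowest or the highest, so that rank alone says little. The log2 difference of control library 0 from the mean of control libraries 1 and 2 was -2.15 for fio1, -2.13 for fip1, -1.53 for str1, -1.05 for frp1 and -0.58 for php4. That of estradiol library 0 from the mean of estradiol libraries 1 and 2 was -0.54, -0.71, -0.44, -0.47 and -0.18 for the same genes. For ctr4 the difference was 0.78 in the controls and 0.79 with estradiol. Among all tested genes, 18 of 6166 (0.292%) lay as low as fio1 in control library 0, and 37 (0.6%) as low as str1. In library 0 of both groups, 32 (0.519%) lay as high as ctr4. Shares for fip1, frp1 and php4 are not given. These comparisons were made after the values had been seen and carry no test. Within each group, fio1, fip1, str1 and frp1 were thus lowest in library 0, where ctr4 was highest. Across the groups this did not hold for fio1, which stood at 82.4 FPKM in estradiol library 0 and 71.6 FPKM in control library 1. The log2 differences of sib1 and sib2 were 0.13 and -0.01 in the controls. What cultures of the same number share is not stated, and its part in these values was not tested.

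**Figure D4:**
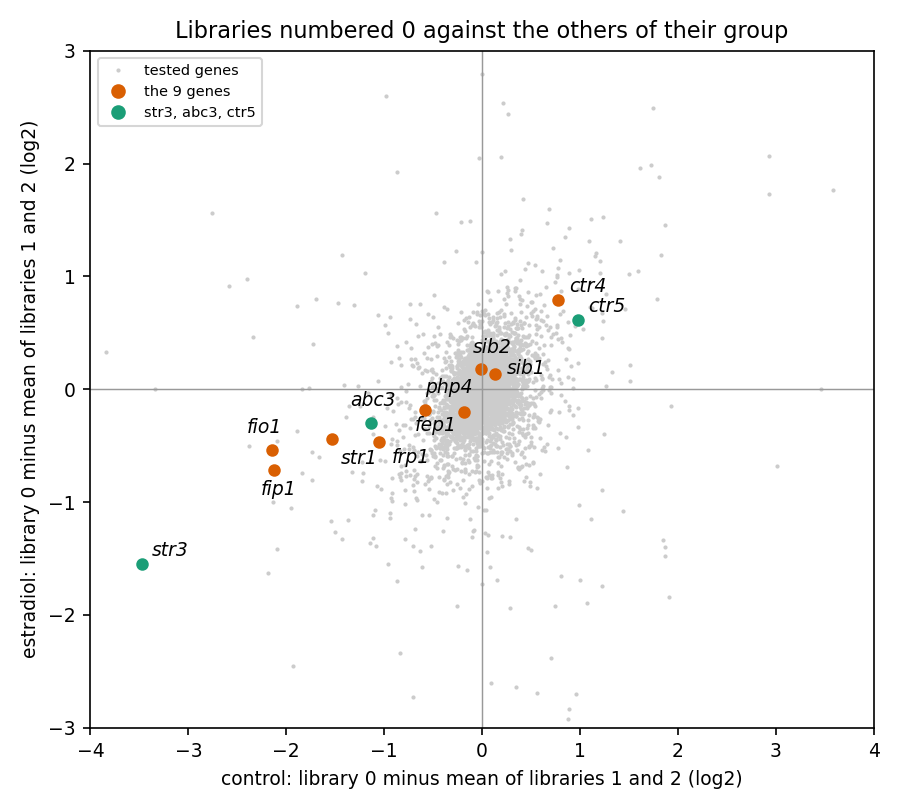
Log2 difference of library 0 from the mean of libraries 1 and 2, for the controls (x axis) and for estradiol (y axis), in tested genes (grey), the 9 genes (orange) and 3 related genes (green). The genes fio1, fip1, str1 and frp1 lie at the lower left, ctr4 and ctr5 at the upper right, and 28 tested genes lie outside the plotted range.

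The spread of each gene was also split, as a description, into shares of its squared deviations on the log2 scale. Column number took 97.1% for ctr4, and treatment took 2.18%. For str1, frp1, php4 and sib1 column number took 73.0%, 73.0%, 74.1% and 79.6%, and treatment took 0.893% to 15.8%. For fio1 and fip1 the shares of treatment were 35.5% and 24.0%, and those of column number 48.1% and 60.8%. In fep1 alone among the 9, treatment took the larger part, at 63.5%. Over all tested genes the median share was 32.2% for treatment and 34.6% for column number. The SD of log2 values over the controls was 1.25 for fio1, 1.23 for fip1, 0.90 for str1 and 0.76 for frp1, above 99.0%, 98.9%, 98.2% and 97.7% of tested genes. That of sib1 was 0.10 and that of sib2 0.05, above 42.7% and 16.4% of tested genes. Over the estradiol libraries the SD was 0.37 for fio1, 0.47 for fip1, 0.27 for str1 and 0.29 for frp1. These lay above 90.5%, 93.9%, 83.3% and 85.4% of tested genes. For sib1 and sib2 it was 0.14 and 0.10 with estradiol, above 58.2% and 41.9%.

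Further genes of iron uptake and storage were read from a list of 8, of which 7 were tested. Limma called 0 of the 7 in either direction, against 7.98% of all tested genes. At an unadjusted limma p under 0.05 stood 2 of them, against 25.9% of all tested genes. These 2 were sib3, another ferrichrome synthesis gene, which had a log2 change of -0.33 (limma adjusted p = 0.0657, and 0.0192 with the block), and frp2, a ferric reductase-like gene, which had 0.63 (limma adjusted p = 0.105). Levels of sib3 were 167, 155 and 187 FPKM in control libraries and 142, 126 and 136 FPKM with estradiol, and each estradiol library lay below each control. The groups did not overlap in 4 of the 7 tested genes of the list, sib3 among them, and in 31.2% of all tested genes. The block called sib3 lower and no other gene of the list, where it called 8.5% of all tested genes lower. The transporter gene str3 and the vacuolar transporter gene abc3 were picked with their values in view. The str3 gene stood at 0.691, 25.7 and 12.3 FPKM in control libraries 0, 1 and 2 and at 11.2, 32.5 and 37.3 FPKM with estradiol, with library 0 the lowest of each group. Its log2 change was 1.57 (SE 1.00, limma adjusted p = 0.377). The abc3 gene stood at 8.81, 23.5 and 18.0 FPKM in control libraries and at 11.8, 15.7 and 13.9 FPKM with estradiol, again lowest in library 0. Its log2 change was -0.17 (limma adjusted p = 0.791). Annotated lncRNAs with rows of their own overlap abc3. The neighbour of frp1, the vacuolar iron importer gene pcl1, which Php4 is known to repress, ran from 96.8 to 123 FPKM over all 6 libraries and was highest in control library 0.

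Of 7 regulator genes beside fep1 and php4, limma called 1 higher and 0 lower, against 4.07% and 3.91% of all tested genes. This was php5, a subunit gene of the CCAAT-binding complex, which rose from 43.3, 45.5 and 47.0 FPKM in the controls to 72.2, 61.6 and 63.2 FPKM with estradiol. Its groups lay well apart, with a log2 change of 0.52 (SE 0.08, limma adjusted p = 0.0151). The call was lost without control library 0, control library 1 or estradiol library 1, with a highest limma adjusted p of 0.0608. The other subunit genes, php2 and php3, named after their values were seen, had limma adjusted p of 0.432 and 0.516. The glutaredoxin gene grx4, whose product binds Fep1 and Php4, was named after its values were seen. It stood at 137, 163 and 180.2 FPKM in control libraries and at 104, 115 and 134 FPKM with estradiol. The groups of grx4 did not overlap, as was the case for 31.2% of all tested genes. The log2 change was -0.44 (SE 0.13, limma adjusted p = 0.0903, and 0.00578 with the block, which called 8.5% of all tested genes lower).

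Of 17 copper genes listed, 15 had a row and 13 were tested. Limma called 0 in either direction, against 7.98% of all tested genes, and 0 with the block, against 16.7%. At an unadjusted limma p under 0.05 stood 0 of the 13, against 25.9% of all tested genes. Those with the smallest p were the copper chaperone gene atx1 (log2 change -0.28, limma adjusted p = 0.227) and the metallothionein gene zym1 (-0.29, limma adjusted p = 0.313). Without estradiol library 2 limma called atx1 lower (adjusted p = 0.0296). The copper list had a median log2 change of -0.03.

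Of 22 iron-using enzyme genes, all tested, limma called 5 lower and 0 higher, where 3.91% of all tested genes were called lower, and the block called 10 lower, where it called 8.5% of all tested genes lower. The log2 change lay below 0 in 19 of the 22, and in 2841 of the 6166 tested genes, and the median of the list was -0.17. The 5 were ilv3, from 511 ± 30.4 to 365 ± 24.1 FPKM (log2 change -0.49, limma adjusted p = 0.0157), lys2 (-0.46, 0.0219), leu2 (-0.35, 0.0271), bio2 (-0.39, 0.0271) and ctt1 (-0.49, 0.0271). The first 3 encode iron-sulfur enzymes of amino acid synthesis, bio2 encodes biotin synthase and ctt1 the heme-containing catalase. Each call was lost when some single library was left out: that of ilv3 without control library 0 or estradiol library 1, and that of lys2 and ctt1 without control library 0, control library 1, estradiol library 1 or estradiol library 2. The calls of leu2 and bio2 held in 1 of 6 omissions each. Under quantile normalization ilv3, leu2 and bio2 were not called, and leu2 had a log2 change of -0.17. With no filter on low values ctt1 was not called (limma adjusted p = 0.0554). Respiratory genes of this list, described with their values in view, differed in which library was highest. The cytochrome genes cyc1 and cyt1 and the Rieske protein gene rip1 were lowest in library 0 of each group. The succinate dehydrogenase genes sdh1, sdh2, sdh3 and sdh4 were highest there. The row for sdh4 was matched by synonym, and the annotation names it tim18.

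Of 18 genes of iron-sulfur cluster assembly, 16 were tested, and limma called 1 higher and 1 lower, which is near the 4.07% and 3.91% of all tested genes. The scaffold gene isu1 fell from 114 ± 13.3 to 83.9 ± 4.11 FPKM (log2 change -0.44, limma adjusted p = 0.0342). The cytosolic assembly gene nar1 rose from 29.2 ± 3.46 to 46.5 ± 5.65 FPKM (0.65, limma adjusted p = 0.0266). The call of isu1 was lost in all 6 omissions of a library, and that of nar1 in all but that of estradiol library 0, with highest limma adjusted p of 0.109 and 0.0997. Of 10 heme synthesis genes listed, 9 were tested, and limma called hem12, which encodes uroporphyrinogen decarboxylase, lower (log2 change -0.33, limma adjusted p = 0.039). Its call held in 1 of 6 omissions, that of estradiol library 0. With no filter on low values, limma's adjusted p was 0.0692 for isu1, 0.0612 for nar1 and 0.0603 for hem12. The calls of isu1 and hem12 were also lost under quantile normalization (0.0535 and 0.0553) and without the intensity trend (0.0583 and 0.0648). The list's median was -0.15, and it shares etp1, listed there as cox15, with the assembly list. Of 12 other metal transporter and zinc regulator genes listed, 11 were tested, and limma called pmr1, a Golgi calcium and manganese pump gene, lower (log2 change -0.37, limma adjusted p = 0.0174), a call lost without control library 1, estradiol library 1 or estradiol library 2. For both lists, single calls stand beside 3.91% of all tested genes called lower. The median of the transporter list was -0.14.

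**Figure D5:**
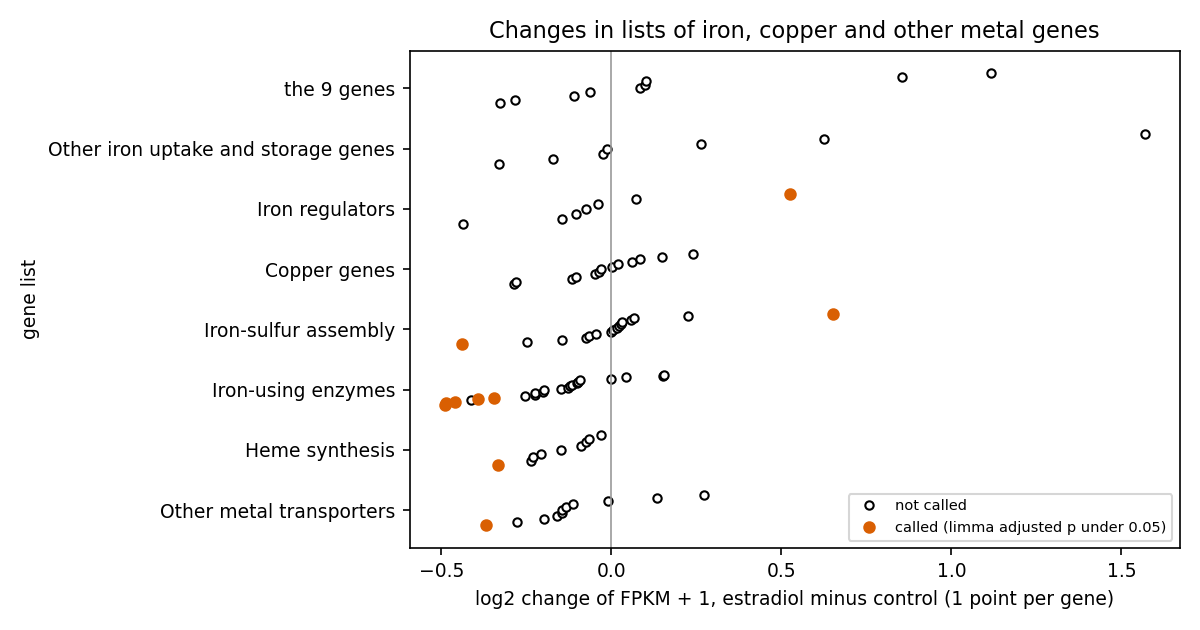
Log2 change of FPKM + 1 with estradiol (x axis) of every tested gene in the 9 genes and in 7 lists (y axis), with filled points for genes called by limma. None of the 9 genes is called, 5 iron-using enzyme genes are called lower, and php5 and nar1 are called higher.

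The genes whose pattern over the 6 libraries was most like that of the uptake genes were found with Pearson's r between log2(FPKM + 1) and the mean standardized profile of str1, frp1, fio1, fip1, sib1 and sib2. Outside the 9 genes the highest were SPAC25B8.08 (r = 0.994), pvg5 (0.972), pyp2 (0.968), fta6 (0.965) and gab1 (0.961). These are the highest of all tested genes over 6 libraries that the genes share, and r is given as a description. SPAC25B8.08 and gab1 ranged only from 20.3 to 23.7 FPKM and from 27.6 to 31.2 FPKM, against 17.3 to 138 FPKM for fio1. fta6 was listed at 0 in control library 0. With the same profile, str1 itself had 0.899 and php4 0.929, while sib1 and sib2 had -0.07 and -0.09, so that these 2 genes did not share the pattern to which they contributed.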

How the data were processed

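Ribosomal RNA was removed and unstranded TruSeq libraries were sequenced as paired 151 bp MiSeq reads, per the labels' protocols. The authors deposited 1 table of FPKM, a level per length and library total, with each library in its own column. Per the submitters' processing notes, the tools were CASAVA 1.4, TopHat2 and Cuffdiff. Their roles, the genome build and the annotation are not given there. No counts were used and absolute depth is unknown.

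The table's column names gave the group of each library, but not its replicate number in the labels. Of 7016 rows, the 6166 whose FPKM averaged 1 or more entered a 2-sided limma test (version 3.58.1, under R 4.3.3). It used log2(FPKM + 1), the intensity trend and Benjamini-Hochberg adjustment over all these genes. This scale understates the change of low genes. With 3 libraries against 3, an exact permutation test of a single gene cannot go below p = 0.1, and none is given. The fit was tested on simulated data first.

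To check pairing, each library's deviations from its group's mean were correlated over genes. Control and estradiol libraries with equal column numbers gave 0.152, 0.212 and 0.146, and other pairs gave -0.149 to -0.0112. The numbers were therefore treated as pairing the libraries in an alternative with a replicate block, although the labels do not say what they share. Deviations within a group sum to 0, so that the negative values partly follow from the positive ones.

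Further alternatives changed the pseudocount, the filter, the scaling or the trend, or left out each library in turn. The 9 genes, the lists and the tests were chosen with earlier results of these data known. The text names the 9 genes, every called gene of a list, the 2 genes with the smallest p in the iron uptake and copper lists, which had none, the 5 genes most like the uptake genes, and genes that overlap or flank one of the 9, such as pcl1. Others were named after their values were seen. Identifiers were matched to RefSeq ASM294v3 (6845 of 7016, with 171 unmatched). The list genes cox11, cox23, ssq1, cfd1, hmx1 and msc2 had no matched row, and shu1, mfc1 and cao2 had too low a level to be tested. Python 3.11.15 and Biopython 1.88 read the sequences. Sequence upstream of ctr4 is not reported here.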

Additional observations from a re-analysis of the deposited data

How the results depend on the processing

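None of the 9 genes was called under any alternative except fep1, which the replicate block called lower, so that members called lower went from 0 to 1. Over all genes, 251 were called higher and 241 lower. With the block, which pairs libraries by column number, these counts were 506 and 524. Under quantile normalization they were 144 and 108. With 1 library left out they ran from 49 to 242 higher and from 37 to 207 lower. Without libraries 0 of both groups, an alternative chosen after seeing the data, they were 93 and 64. That alternative turned the log2 change of str1 to -0.26 and of php4 to -0.033, and median scaling turned that of ctr5 to -0.015. Leaving out 1 library moved str1 between -0.41 and 0.45, frp1 between -0.68 and 0.081, php4 between -0.094 and 0.21, ctr4 between -0.37 and 0.15, abc3 between -0.55 and 0.11 and ctr5 between -0.19 and 0.35, each changing sign. The causes were not tested. The block called sib3 and grx4 lower, and median scaling called sib3 lower (limma adjusted p = 0.045). The signs of fio1, fip1, sib1, sib2 and fep1 held in all 15 alternatives. Absolute depth is unknown, which leaves counting error in low genes such as str3 unmeasured.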
